A study of Saccharomyces cerevisiae with 18 samples.

Results

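The genes described here encode the proteins of the large subunit of the cytosolic ribosome of budding yeast (Saccharomyces cerevisiae). They were taken by name from the annotation of the array's probes, as every symbol made of RPL, a number and an optional A or B, together with the stalk genes RPP0, RPP1A, RPP1B, RPP2A and RPP2B. This gave 71 genes on 72 probes, out of 5365 named genes on 6912 probes. The RefSeq annotation of the R64 assembly lists 81 such genes, and 10 of them were not analysed here. The 71 genes belong to 44 of 46 families. Both copies of a duplicated gene were measured for 27 families, 7 genes were measured for only 1 of their 2 copies, and 10 genes exist as a single copy (RPL3, RPL5, RPL10, RPL25, RPL28, RPL30, RPL32, RPL38, RPL39 and RPP0).

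The large subunit holds the peptidyl transferase centre, where amino acids are joined, and the tunnel through which the new chain leaves. Its proteins are made in the cytoplasm, carried into the nucleolus and built onto ribosomal RNA, and each particle needs them in fixed proportion. In growing yeast their messenger RNAs are among the most abundant, and their genes are known to be transcribed together, under Rap1, Fhl1, Ifh1 and Sfp1, and to be turned down together in many kinds of stress. Most of the genes were duplicated in the past of this species, and the copies of a pair encode identical or nearly identical proteins.

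All cultures were of strain S288C, grown at 25 °C in YPD (yeast extract, peptone and glucose) to an optical density of 1. They were exposed for 2 h to 1 of 3 nitrophenol isomers, which are phenols with a nitro group on the ring. The dose of p-nitrophenol, with that group opposite the hydroxyl group, was 1.5 mM. That of m-nitrophenol, with the group in between, was 5 mM, and that of o-nitrophenol, with the groups side by side, was 3 mM. Polyadenylated RNA of the treated culture carried Cy5 and RNA from before treatment Cy3, on 1 array for each of 3 independent biological samples per isomer, 9 arrays in all. The doses differ, so isomer and dose cannot be told apart. Time and treatment cannot be told apart either, since the reference is the culture before treatment and no untreated culture of 2 h was used here, and the dyes were not swapped. The labels do not say whether RNA from before treatment was shared between arrays. All values below are log2 ratios, read as treated over before treatment. That direction is likely from the order of the channels and the dyes in the labels, but is not stated with the values. In a bulk culture, a smaller share of cells holding a transcript and less of it per cell cannot be told apart. Normalization makes each ratio relative to the other genes on the array.

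The arrays numbered 1 stood apart from the others. They held values for 4369, 1970 and 3797 named genes (p, m and o), against 5155 to 5343 on the arrays numbered 2 and 3. Across all genes they correlated with the other arrays of their own isomer at r = 0.50 to 0.61, and arrays 2 and 3 of an isomer with each other at 0.84 to 0.87. Over the large-subunit genes the same ranges were 0.15 to 0.65 and 0.72 to 0.84. These are descriptions over genes, which are not independent. Results are therefore given with all arrays and without the arrays numbered 1. The second fit leaves out arrays because of their values, so it may understate the spread and its p-values may be too small. Of the 71 genes, 57 had a value on all 9 arrays. The m-nitrophenol array 1 lacked 11 of them, and in p- and o-nitrophenol 4 and 2 genes had values on only 2 arrays. All 71 met the requirement of at least 2 arrays in each isomer.

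The large-subunit genes as a group lay far below the other genes on the p- and m-nitrophenol arrays. On the o-nitrophenol arrays they lay low on array 1 and near the other genes on array 2. On the p-nitrophenol arrays 1, 2 and 3 the median of the group was -2.71, -1.89 and -2.42. On the m-nitrophenol arrays it was -1.25, -2.97 and -4.27, and on the o-nitrophenol arrays -2.38, -0.06 and -0.67. The median of all genes lay between -0.20 and 0.11 on every array. The p-nitrophenol arrays were the most alike. The m-nitrophenol arrays covered a range that took in all the p-nitrophenol medians, and 2 of the o-nitrophenol arrays lay above every array of the other isomers. The means of the array medians were -2.34 ± 0.42, -2.83 ± 1.51 and -1.04 ± 1.2 (SD, n = 3 each).

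**Figure D1:**
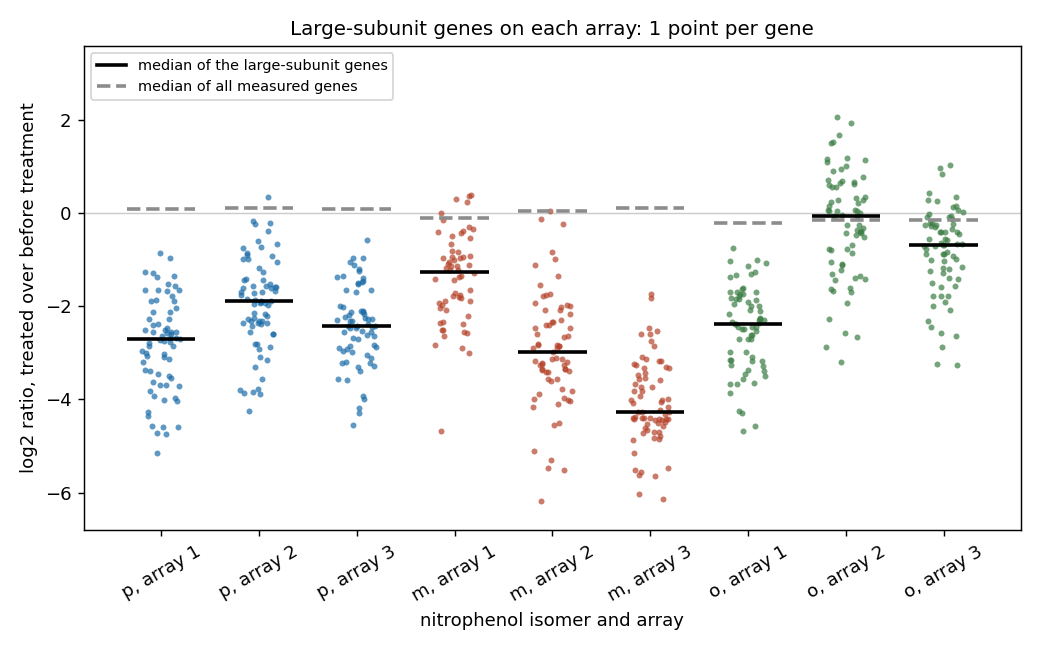
Log2 ratio (treated over before treatment, vertical axis) of each large-subunit gene on each of the 9 arrays (horizontal axis), 1 point per gene. Solid bars mark the median of these genes and dashed bars that of all measured genes on the same array. The solid bar lies under the dashed bar on each array except o-nitrophenol array 2 (-0.06 against -0.15), and is lowest on m-nitrophenol array 3 (-4.27).

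Placed among all genes, the median large-subunit gene of the p-nitrophenol arrays lay above only 3.6%, 6.3% and 2.8% of the measured genes. On the m-nitrophenol arrays it lay above 11.9%, 2.6% and 1.3%, and on the o-nitrophenol arrays above 5.9%, 52.5% and 30.9%. On o-nitrophenol array 2 the group was therefore in the middle of all genes. There, 37 of the 71 genes were below 0, beside 54.6% of all genes, 34 were above it, and 10 were at or above 1.

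After p-nitrophenol 54 of the 71 genes (76.1%) fell at an adjusted p under 0.05 (limma, adjusted over 5096 genes), beside 11.9% of all tested genes. None rose, beside 13.0% of all tested genes, and at an unadjusted p under 0.05 there were 63 lower and 0 higher. The median of the 71 gene means was -2.32, a 4.98-fold lower ratio, against 0.10 over all genes, and the gene means ran from -4.43 to -0.68. Of all genes 47.2%, 45.3% and 45.5% were below 0 on p-nitrophenol arrays 1, 2 and 3. All 71 means of the large-subunit genes were below 0, and 70 of these genes were below 0 on each array that measured them. The exception was RPL38. With 1 of the p-nitrophenol arrays left out, 27, 31 or 24 genes passed, and 21 passed in each of the 9 fits that leave out 1 array of any isomer. For the unadjusted counts and the fits that leave out 1 array, here and below, the share of all genes is not given. Drops in those fits are therefore not read as particular to the large-subunit genes. Without the arrays numbered 1, 61 passed (19.5% of all genes) and the median was -2.08. In that fit RPL14B, RPL15A and RPL26B had only p-nitrophenol array 2, and the call of RPL26B (-1.43, adjusted p 0.0389), which is among the 61, takes its spread from the other groups.

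After m-nitrophenol 59 genes fell (83.1%), beside 9.65% of all genes, and none rose, beside 8.26% (69 lower and 0 higher at an unadjusted p under 0.05). The median of the gene means was -2.77, a 6.83-fold lower ratio, against 0.04 over all genes, and the means ran from -4.96 to -0.84. Of all genes 53.4%, 48.2% and 44.6% were below 0 on m-nitrophenol arrays 1, 2 and 3. On all their arrays 65 large-subunit genes were below 0. The 6 others (RPL11B, RPL19A, RPL20B, RPL25, RPL40B and RPL41A) each had 1 array above 0. Without m-nitrophenol array 2 or 3 the count fell to 24 or 18, and 17 genes passed in each of the 9 fits. Without the arrays numbered 1, 69 passed (18.3% of all genes), the median was -3.60, and RPL23B and RPL41A missed the threshold.

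After o-nitrophenol 19 genes fell (26.8%), beside 18.7% of all genes, and none rose, beside 13.8% (31 lower and 0 higher at an unadjusted p under 0.05). The share that fell is near that of all genes. The median of the gene means was -0.97, a 1.96-fold lower ratio, against -0.17 over all genes, and the means ran from -3.46 to 0.52. The 19 genes were RPL1A, RPL1B, RPL2B, RPL3, RPL4A, RPL4B, RPL5, RPL10, RPL11A, RPL15A, RPL16B, RPL17A, RPL18B, RPL22A, RPL26B, RPL30, RPL33A, RPP0 and RPP1A. Below 0 on o-nitrophenol arrays 1, 2 and 3 were 69 of 69, 37 of 71 and 60 of 71 large-subunit genes. Of all genes 56.4%, 54.6% and 55.3% were below 0 there. On all their arrays 37 large-subunit genes were below 0, and 11 were above 0 on both arrays 2 and 3. Without o-nitrophenol array 1 the count was 6 and without array 3 it was 9. The genes that passed in all 9 fits were RPL1A, RPL4A, RPL4B, RPL5, RPL15A and RPP0. Without the arrays numbered 1, 23 genes fell, beside 29.3% of all genes, and RPL38 and RPL39 rose, beside 22.2%. The median was then -0.40. The median 95% confidence interval of a gene's mean reached 1.32 to either side in each isomer, so that a mean nearer to 0 than that could not generally be told from no change.

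**Figure D2:**
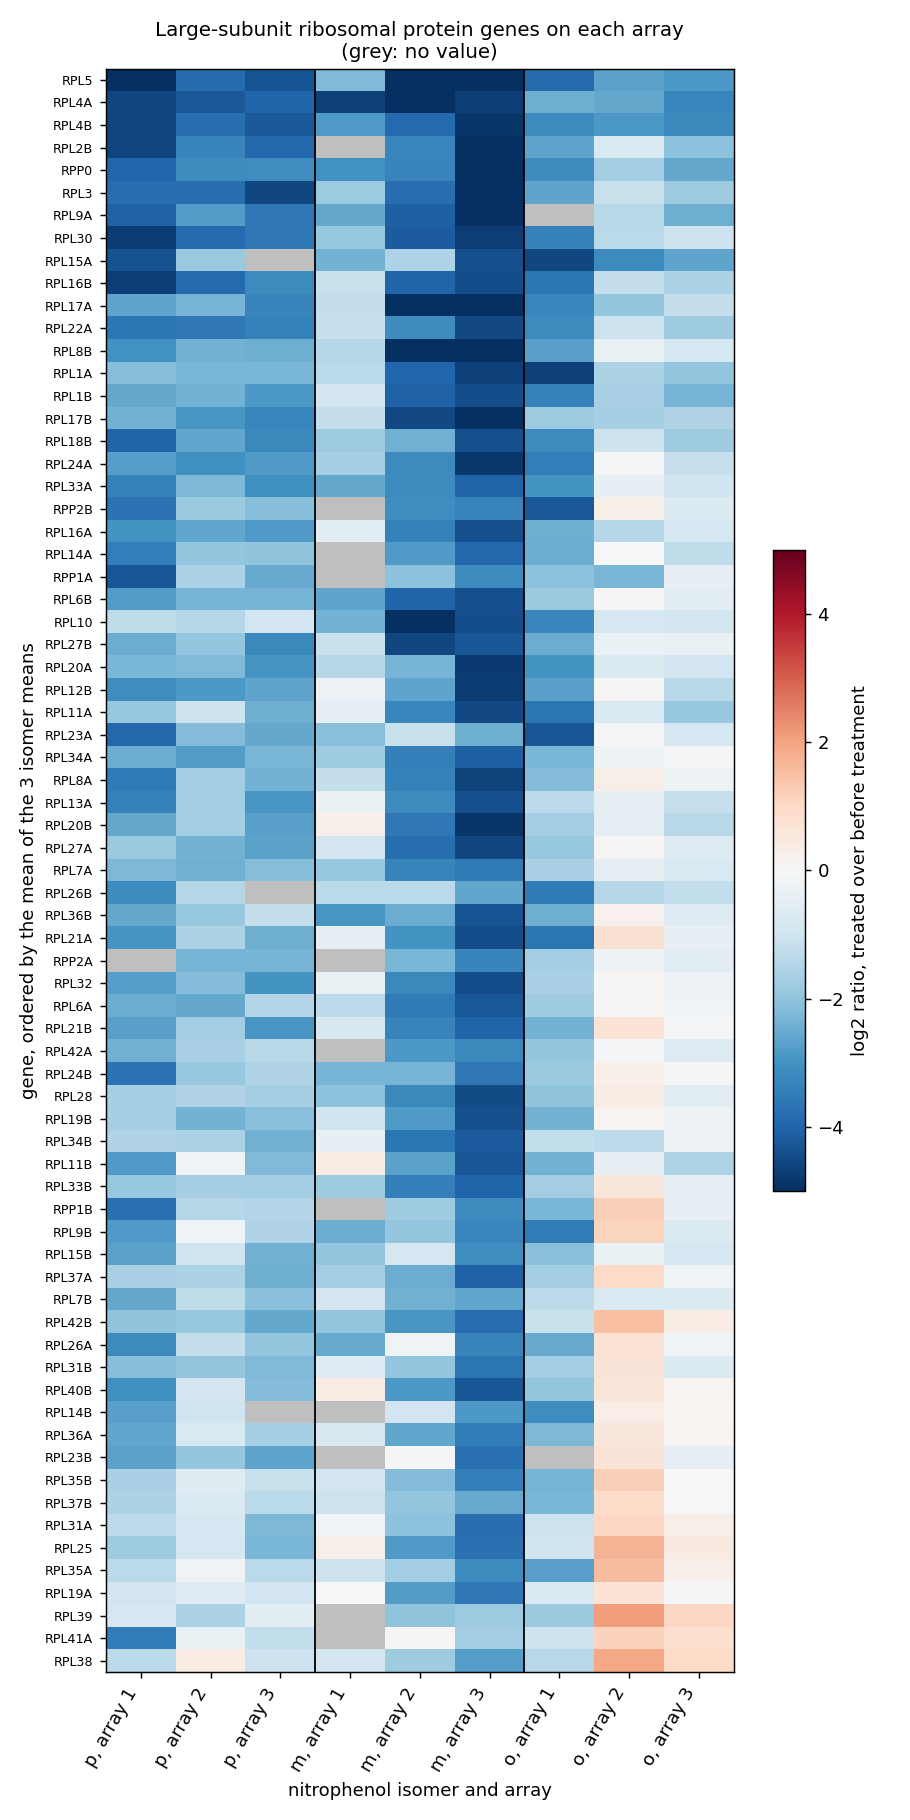
Log2 ratio of each of the 71 genes (rows, ordered by the mean of their 3 isomer means) on each array (columns). Blue is lower after treatment, red higher, and grey marks a missing value. The columns of p-nitrophenol and of m-nitrophenol arrays 2 and 3 are blue almost throughout, while o-nitrophenol arrays 2 and 3 turn from blue at the top to red at the bottom, where RPL38 reached 1.95 and 0.98.

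The genes kept to some order among themselves. Ranked from lowest to highest on each array over the 57 genes with complete values, RPL5 and RPL4A had a median rank of 3 and RPL4B of 4, and RPP0 followed at 7. RPL5 was never above rank 11 and RPL4B never above rank 13, while RPL4A reached rank 25 on its highest array. At the other end stood RPL38, with a median rank of 54 and a lowest rank of 40, then RPL35A at 53, RPL19A at 52 and RPL31A at 51. RPL10 and RPL23A moved most freely, from rank 4 to 56 and from rank 2 to 57.

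RPL5 (YPL131W) encodes the protein that carries 5S ribosomal RNA into the particle. It stood at -5.15, -3.84 and -4.30 on the p-nitrophenol arrays, at -2.21, -5.47 and -5.64 on the m-nitrophenol arrays, and at -3.86, -2.66 and -2.88 on the o-nitrophenol arrays. All arrays were more than 4-fold below the level before treatment, and the ranges of the isomers overlapped. The means were -4.43, -4.44 and -3.13 ± 0.58 (SE, n = 3 each), with adjusted p of 0.00135, 0.00156 and 0.0034. Its partner on 5S ribosomal RNA, RPL11, comes in 2 copies. RPL11A fell after m- and o-nitrophenol (-2.73 and -2.12 ± 0.70, adjusted p 0.0245 and 0.042) and stood at -1.80 after p-nitrophenol (adjusted p 0.0841). RPL11B passed in no isomer, with means of -1.76, -2.19 and -1.46.

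The RPL4 pair encodes the protein whose long loop lines the exit tunnel. RPL4A (YBR031W) stood at -4.56, -4.24 and -4.0 after p-nitrophenol, at -4.68, -5.52 and -4.70 after m-nitrophenol, and at -2.45, -2.57 and -3.26 after o-nitrophenol. Its 3 isomers did not overlap: every o-nitrophenol array lay above every p-nitrophenol array, and these above every m-nitrophenol array. The means were -4.27, -4.96 and -2.76 ± 0.28, or 19.2-fold, 31.2-fold and 6.79-fold lower, with adjusted p of 4.24e-05, 1.84e-05 and 0.000186. RPL4B (YDR012W) had means of -4.18, -3.85 and -3.09 ± 0.35, and its o-nitrophenol arrays (-3.18, -2.87 and -3.23) overlapped its m-nitrophenol arrays (-2.82, -3.88 and -4.85).

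RPP0 (YLR340W) encodes the base of the P stalk, the arm of the large subunit that recruits the elongation factors. On the p-nitrophenol arrays it was at -3.96, -3.16 and -3.11, on the m-nitrophenol arrays at -3.01, -3.34 and -5.62, and on the o-nitrophenol arrays at -3.16, -1.69 and -2.57. The isomers overlapped. The means were -3.41, -3.99 and -2.47 ± 0.47, with adjusted p of 0.00172, 0.00108 and 0.00386. Pairs of the small acidic proteins P1 and P2 bind to it. RPP1A fell in all 3 isomers, with means of -2.80 (SE 0.53), -2.62 (SE 0.64, 2 arrays) and -1.58 (SE 0.53) and adjusted p of 0.0068, 0.023 and 0.0457. RPP2A and RPP2B fell after p-nitrophenol (-2.32 on 2 arrays and -2.56, adjusted p 0.00764 and 0.0306). They also fell after m-nitrophenol (-2.81 and -3.22, 2 arrays each, adjusted p 0.00444 and 0.0354). They stood at -0.83 and -1.55 after o-nitrophenol, with adjusted p of 0.0983 and 0.126. RPP1B fell after p-nitrophenol (-2.21 ± 0.65, adjusted p 0.0348), and its m-nitrophenol mean of -2.45 rests on 2 arrays (adjusted p 0.0609). None of the 4 P1 and P2 genes had a value on m-nitrophenol array 1.

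By place in the subunit, the 6 genes of the P stalk, RPL12B included, fell 6 of 6 after p-nitrophenol, 5 of 6 after m-nitrophenol and 2 of 6 after o-nitrophenol. RPL1A and RPL1B, which form the L1 stalk at the exit site of transfer RNA, fell in every isomer, with means of -2.22 and -2.60, -3.32 and -3.14, and -2.75 and -2.43. Of the 14 genes of the exit tunnel and its rim, 8, 10 and 4 fell after p-, m- and o-nitrophenol. Their medians were -2.06, -2.11 and -0.62, with a span after o-nitrophenol from RPL4B at -3.09 to RPL39 at 0.43. Of the 3 genes of the 5S RNA complex (RPL5, RPL11A and RPL11B), 1, 2 and 2 fell. The 46 genes placed in none of these groups fell in 37, 40 and 9 cases. Of all genes 11.9%, 9.65% and 18.7% fell. The o-nitrophenol counts of the exit tunnel genes and of the 46 genes are near that share.

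Among the other single-copy genes, RPL3 encodes a protein that reaches the peptidyl transferase centre. RPL3 (YOR063W) was at -3.82, -3.80 and -4.55 after p-nitrophenol, at -1.80, -3.82 and -6.04 after m-nitrophenol, and at -2.62, -1.12 and -1.77 after o-nitrophenol. Its o-nitrophenol arrays all lay above its p-nitrophenol arrays and overlapped the m-nitrophenol arrays. The means were -4.06, -3.88 and -1.84 ± 0.62 (adjusted p 0.00232, 0.00319 and 0.0441). RPL30, whose protein binds its own transcript and limits its splicing, had means of -4.07, -3.58 and -1.92 ± 0.56 (adjusted p 0.00168, 0.00298 and 0.026). It is the only member with 2 probes, and these held the same value in all 14 scans that measured both, so they count as 1 measurement. RPL32 fell after p- and m-nitrophenol (-2.63 and -2.68 ± 0.62, adjusted p 0.0138 and 0.016) and stood at -0.61 after o-nitrophenol (adjusted p 0.466).

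RPL10 encodes the last protein to join the particle, in the cytoplasm. RPL10 (YLR075W) stood at -1.26, -1.44 and -0.96 on the p-nitrophenol arrays, at -2.37, -5.30 and -4.42 on the m-nitrophenol arrays, and at -3.27, -0.86 and -0.91 on the o-nitrophenol arrays. All m-nitrophenol arrays lay below all p-nitrophenol arrays, and o-nitrophenol array 1 was apart from the other two. The mean after m-nitrophenol was -4.03 ± 0.56 (adjusted p 0.00176), after o-nitrophenol -1.68 ± 0.56 (adjusted p 0.0433), and after p-nitrophenol -1.22 ± 0.56 (adjusted p 0.136). Its difference of -2.81 between m- and p-nitrophenol was the widest of the group in that comparison, with a 95% interval from -4.57 to -1.05 and an adjusted p of 0.605. Without the arrays numbered 1 the difference was -3.66 ± 0.39, with an adjusted p of 0.00481. RPL28, known for the mutations that give resistance to cycloheximide, stood at -1.66, -1.52 and -1.65 after p-nitrophenol, at -2.04, -3.21 and -4.49 after m-nitrophenol, and at -2.0, 0.36 and -0.54 after o-nitrophenol. It fell after p-nitrophenol (-1.61 ± 0.48, adjusted p 0.0348) and m-nitrophenol (-3.25 ± 0.48, adjusted p 0.00246).

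The lowest means also held RPL2B and RPL8B after m-nitrophenol and RPL15A after o-nitrophenol. RPL8B was at -1.43, -6.19 and -5.55 on the m-nitrophenol arrays, with a mean of -4.39 ± 0.76 (adjusted p 0.00461), and m-nitrophenol array 1 was far above the other two. RPL2B was at -3.26 and -5.52 on m-nitrophenol arrays 2 and 3, with a mean of -4.39 ± 0.59 (adjusted p 0.00209). RPL15A was at -4.56, -3.19 and -2.64 on the o-nitrophenol arrays, with a mean of -3.46 ± 0.62 (adjusted p 0.00355), the lowest of the group in that isomer.

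At the upper end, RPL38 encodes a short protein of the subunit. RPL38 (YLR325C) was at -1.36, 0.36 and -1.05 on the p-nitrophenol arrays, at -0.93, -1.76 and -2.75 on the m-nitrophenol arrays, and at -1.37, 1.95 and 0.98 on the o-nitrophenol arrays. It lay on both sides of 0 after p- and o-nitrophenol and passed in none (means -0.68, -1.81 and 0.52 ± 0.58, adjusted p 0.411, 0.0554 and 0.514). RPL39, whose short protein lies in the wall of the tunnel, was at -1.84, 2.08 and 1.04 on the o-nitrophenol arrays. Its means were -1.0, -1.91 (2 arrays) and 0.43, and none passed (adjusted p 0.25, 0.103 and 0.608). In the limma fit without the arrays numbered 1 of all isomers, the o-nitrophenol mean of RPL38 was 1.46 ± 0.40 (adjusted p 0.0152). That of RPL39 was 1.56 ± 0.33 (adjusted p 0.00475). Over the alternative fits the o-nitrophenol mean passed in 1 of 19 for RPL38 and in 3 of 18 for RPL39.

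RPL25, at the rim of the tunnel where the signal recognition particle docks, stood at -1.01, 1.69 and 0.44 after o-nitrophenol, and RPL41A, the gene of a very short peptide, at -1.02, 1.15 and 0.85. Neither passed in any isomer. RPL35A, RPL19A, RPL26B and RPL37B completed the highest means. RPL35A, also of the rim, had means of -0.95, -1.98 and -0.30 and passed in none. RPL19A fell after m-nitrophenol (-2.12 ± 0.55, adjusted p 0.0258), and so did RPL37B (-1.87 ± 0.52, adjusted p 0.0327). RPL26B was among the highest after m-nitrophenol at -1.77 ± 0.50 (adjusted p 0.04). It fell in the other isomers too (-2.28 on 2 p-nitrophenol arrays and -2.07, adjusted p 0.0262 and 0.0134).

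The genes short of the threshold after p-nitrophenol were 17, namely RPL9B, RPL10, RPL11A, RPL11B, RPL14B, RPL19A, RPL21A, RPL25, RPL31A, RPL35A, RPL35B, RPL36A, RPL37B, RPL38, RPL39, RPL40B and RPL41A. After m-nitrophenol they were 12, namely RPL11B, RPL14B, RPL23A, RPL23B, RPL25, RPL26A, RPL35A, RPL38, RPL39, RPL40B, RPL41A and RPP1B. A gene that misses the threshold is not shown to be unchanged. The mean of RPL40B, for instance, was -2.05 after p-nitrophenol and -2.26 after m-nitrophenol, with adjusted p of 0.078 and 0.0702.

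Over the 71 genes Spearman's rho between gene length and mean was -0.23, -0.24 and -0.18 in p-, m- and o-nitrophenol, and over 5022 other genes -0.26, -0.23 and -0.27. Lengths are those of RefSeq genes, introns included. The 24 shortest genes (78 to 666 bp) had medians of -2.21, -2.73 and -1.21, the 23 between (691 to 871 bp) of -2.12, -2.73 and -0.87, and the 24 longest (872 to 1662 bp) of -2.58, -2.98 and -1.36. The classes thus followed no steady trend. The coefficients are a description over genes that share the same arrays.

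The isomers were then set against each other gene by gene. With all arrays and limma's adjusted p, 0 of the 71 genes passed in m minus p, beside 0.0196% of all genes, and 0 in o minus p, beside 1.18%. At an unadjusted p under 0.05 there were 2 and 13. The other limma fits, with single scans, other normalizations, other filters, a block or a single array left out, gave 0 genes in m minus p and 0 to 2 in o minus p. In o minus m 1 gene passed, RPL4A, beside 0.726%, and 33 had an unadjusted p under 0.05. The same alternatives gave 0 to 20 genes, with 16 without m-nitrophenol array 1, 20 without o-nitrophenol array 1, 12 with all scans and the array as a random block, and 0 without array 2 or array 3 of any isomer. The 3 median differences, in the same order, were -0.53, 1.29 and 1.79, against -0.05, -0.20 and -0.13 over all genes. In o minus p 67 of the 71 differences were above 0, and in o minus m 69. The median 95% interval reached 1.86, 1.86 and 1.87 to either side, so smaller differences could not generally be resolved.

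RPL4A was higher after o- than after m-nitrophenol by 2.20 ± 0.39 (adjusted p 0.0394), with each o-nitrophenol array above each m-nitrophenol array. Over 19 alternatives this difference ran from 1.93 to 2.45 with adjusted p from 0.00771 to 0.227, and it passed in 10 of them. It missed the threshold without array 2 or without array 3 of any isomer, with the high-power scans, with quantile normalization and with only the compared groups in the fit. The largest difference was that of RPL42B, at 3.14 with a 95% interval from 1.67 to 4.61 (adjusted p 0.0546).

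Counted without a model, over the arrays that measured a gene, all m-nitrophenol arrays lay below all p-nitrophenol arrays for 5 of the 71 genes (RPL4A, RPL10, RPL28, RPL39 and RPL42A), beside 13.2% of all genes. All o-nitrophenol arrays lay above all p-nitrophenol arrays for 19, beside 10.8%. All o-nitrophenol arrays lay above all m-nitrophenol arrays for 13, beside 14.1%.

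Without the arrays numbered 1 many more differences passed. The arrays left out are those that agreed least with the rest, and the spread is smaller without them. In o minus m the median SE was 0.84 with all arrays and 0.49 without these. The p-values and counts of this fit are to be read with that limit. Then 15 genes were lower after m- than after p-nitrophenol, beside 2.86% of all genes, with a median difference of -1.35 over the 71 genes. The genes with the smallest p were RPL10 at -3.66 and RPL8B at -3.47 (both adjusted p 0.00481). In o minus p 35 genes were higher, beside 9.07%, with a median of 1.76. RPL30 had the smallest p, at 2.55 ± 0.35 (adjusted p 0.00337), and RPL42B the largest difference, at 3.15. In o minus m 61 were higher, beside 9.11%, with a median of 3.03. RPL8B had both the smallest p and the largest difference, at 5.24 ± 0.36 (adjusted p 0.000218). The 10 genes that missed were RPL4B, RPL15A, RPL15B, RPL18B, RPL23A, RPL23B, RPL26A, RPL26B, RPL41A and RPP1A. These counts rest on the arrays numbered 2 and 3, and on p-nitrophenol array 2 alone for RPL14B, RPL15A and RPL26B, none of which passed in m minus p or o minus p. On arrays 2 and 3 the group medians were -1.89 and -2.42, -2.97 and -4.27, and -0.06 and -0.67.

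**Figure D3:**
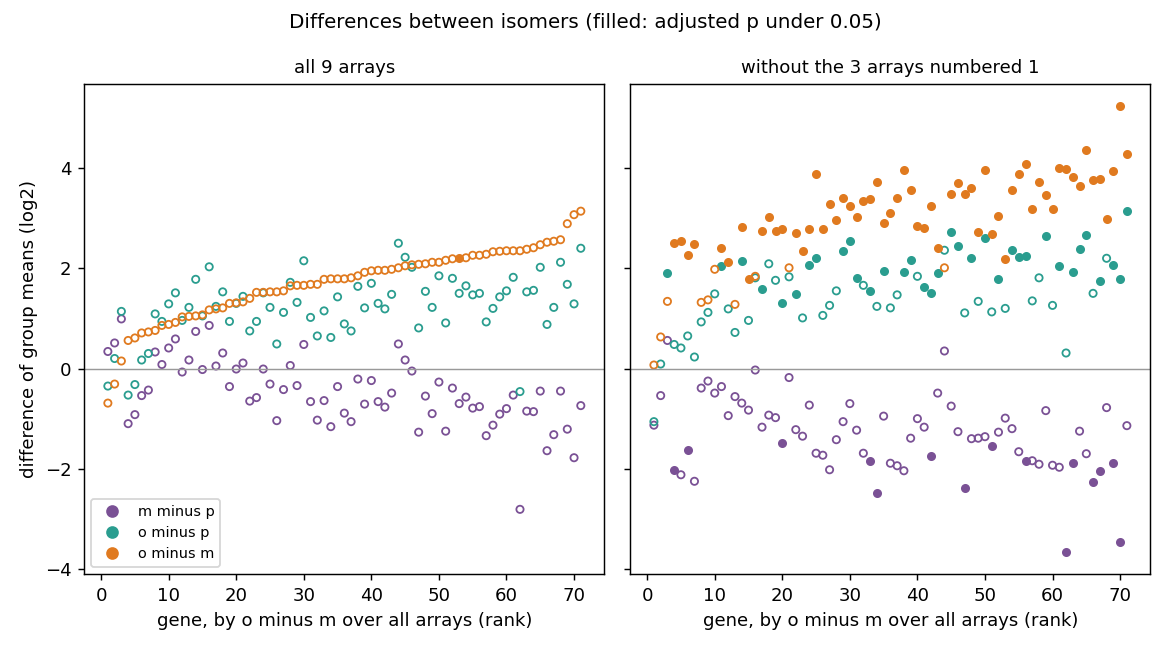
Difference between isomer means (log2, vertical axis) for each of the 71 genes, ordered along the horizontal axis by o minus m over all arrays, with all 9 arrays (left) and without the 3 arrays numbered 1 (right). Filled points passed an adjusted p of 0.05. On the left 1 point is filled, RPL4A in o minus m, and on the right 61 of o minus m, 35 of o minus p and 15 of m minus p are.

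Averaged over arrays, the differences between the copies of a pair were mostly small. Both copies were compared on the same array for 27 pairs, 19 of them on all 9 arrays, as the ratio of copy A minus that of copy B. The mean difference was under 0.5 in size for 17 pairs and at least 1 for 2, with a median size of 0.43. Differences of opposite sign cancel in such a mean, so a small mean can hide larger gaps on single arrays. For RPL34 the mean was -0.32, but the median size over its 9 arrays was 0.96. For RPL42 the mean was -0.21, with 0.36 after p-nitrophenol and -1.13 after o-nitrophenol. Within an isomer the means of the copies of a pair differed by a median of 0.36, 0.41 and 0.57 in p-, m- and o-nitrophenol. For any pair of members the same median was 0.75, 0.75 and 0.86. A probe for a copy may also bind the transcript of its near-identical partner, and the probe sequences were not analysed here, so the likeness of copies is uncertain. After p-nitrophenol both copies passed in 18 pairs, 1 in 7 and neither in 2. After m-nitrophenol these counts were 21, 5 and 1, and after o-nitrophenol 2, 7 and 18.

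In 21 pairs the array values of both copies overlapped in each isomer, and no pair was ordered in the same way, without overlap, in 2 isomers. RPL1, RPL16, RPL19, RPL33 and RPL37 were ordered without overlap after p-nitrophenol alone and RPL15 after o-nitrophenol alone. On 3 pairs the difference had 1 sign on each array that measured both copies. These pairs, RPL9, RPL15 and RPL19, were picked out after their values were seen and have no test. RPL9A was below RPL9B on 8 of 8 arrays, with differences of -1.20, -2.58 and -2.04 after p-nitrophenol, of -0.08, -2.16 and -2.87 after m-nitrophenol, and of -2.49 and -1.74 on o-nitrophenol arrays 2 and 3. RPL15A was below RPL15B on 8 of 8 arrays, with differences of -1.68 and -0.86 on p-nitrophenol arrays 1 and 2, of -0.43, -0.71 and -1.32 after m-nitrophenol, and of -2.46, -2.84 and -1.81 after o-nitrophenol. RPL19A was above RPL19B on 9 of 9 arrays, by 0.03 to 1.70. The smallest gap of the RPL9 pair was that on m-nitrophenol array 1.

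**Figure D4:**
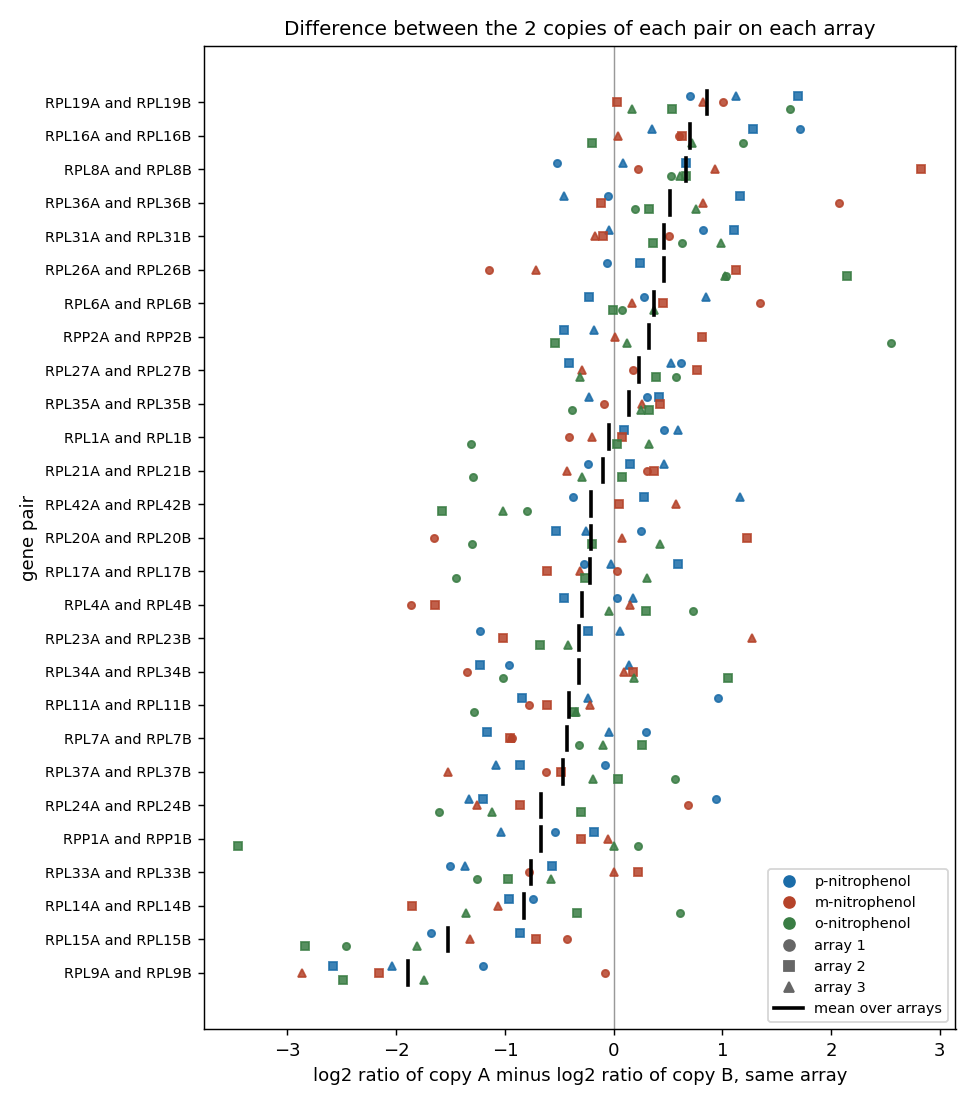
Log2 ratio of copy A minus that of copy B on the same array (horizontal axis) for 27 pairs (rows, ordered by mean). Colours give the isomer, shapes the array number and black bars the mean over arrays. Most bars lie within 0.5 of 0, and RPL9 and RPL15 at the bottom have all their points left of 0, with means of -1.89 and -1.52.

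Genes that serve the large-subunit proteins were counted from 3 lists. Of 11 regulators of ribosomal protein gene transcription, TOR1 and TOR2 were not analysed here. Of the 9 tested, 2, 2 and 4 fell after p-, m- and o-nitrophenol, beside 11.9%, 9.65% and 18.7% of all genes (medians -0.40, -0.61 and -0.86). Counts over so few genes are not read as apart from those shares. By limma's adjusted p 0 rose in any isomer, and at an unadjusted p under 0.05 there were 2, 0 and 0. RAP1, the factor bound to most of these promoters, fell in all 3 isomers (-1.23, -1.57 on 2 arrays, and -0.86, adjusted p 0.011, 0.0113 and 0.0339). So did UTP22, a ribosomal RNA processing factor that binds Ifh1 (-2.17, -3.08 and -2.02, 2 arrays each, adjusted p 0.00492, 0.00175 and 0.00399). After o-nitrophenol FHL1 (-1.02, 2 arrays, adjusted p 0.0398) and the kinase gene SCH9 (-2.08, adjusted p 0.0167) fell as well. IFH1 and SFP1 passed in none, and IFH1 stood at 1.10 after p-nitrophenol (2 arrays, adjusted p 0.0636).

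Of 10 chaperones and placeholders that escort single large-subunit proteins or hold their site, 2, 6 and 6 fell, beside the same shares of all genes, with medians of -0.94, -1.60 and -1.54. The count after p-nitrophenol is near that share. None rose by limma's adjusted p or at an unadjusted p under 0.05. RRB1, the chaperone of Rpl3, fell in all 3 isomers, with means of -1.26 ± 0.33, -3.25 ± 0.40 (2 arrays) and -2.91 ± 0.33 (adjusted p 0.0229, 0.00156 and 0.000454). After o-nitrophenol it was at -3.54, -2.51 and -2.69. BCP1, the chaperone of Rpl23, fell after p- and m-nitrophenol (-1.36 and -1.66), and SYO1, the carrier of Rpl5 and Rpl11, after m-nitrophenol (-1.59, 2 arrays). YVH1, needed to release the stalk placeholder Mrt4, and the placeholders RLP7 and RLP24 fell after m-nitrophenol (-2.69 on 2 arrays, -1.62 and -1.23) and o-nitrophenol (-1.69, -1.60 and -1.61). SQT1, the chaperone of Rpl10, and TIF6, which keeps the subunits apart, fell after o-nitrophenol (-1.93 and -1.48). ACL4, the chaperone of Rpl4, passed in none, and neither did MRT4. Of 5 lysine methyltransferases of large-subunit proteins, 1 fell in each isomer, beside 11.9%, 9.65% and 18.7% of all genes. It was RKM1 (-0.73, -1.31 and -1.23, adjusted p 0.0346, 0.00404 and 0.00283). RKM4 rose after o-nitrophenol (1.56, 2 arrays, adjusted p 0.0165), where 13.8% of all genes rose. The other 3 passed in none. Counts over 5 genes are not read as apart from these shares.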

How the data were processed

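Per the labels, the authors hybridised Cy5-labelled treated RNA and Cy3-labelled RNA from before treatment, scanned each array at high and low laser power and normalized by LOWESS on spots with flag 0. The deposited values are log2 ratios. The scale was read from 13 values at exactly the log2 of 0.01, none of them in the large-subunit genes. The sources used here do not give the background correction, and spot intensities were not analysed here. Scans held values for 766 to 6080 of 6912 probes, with medians of -0.13 to 0.12, and precision is limited by the 3 arrays per isomer.

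The log2 ratios of the high- and low-power scans were averaged per array (where just 1 had a value, it was used), and then over the probes of a gene. Symbols come from the probe annotation, 5360 of 5365 genes matching RefSeq R64. limma 3.58.1 in R 4.3.3 (statmod 1.5.0) fitted group means to 9 arrays (residual degrees of freedom 6, prior 4.406). Genes with values on at least 2 arrays of each isomer (5096) were tested against 0 and between isomers, with Benjamini-Hochberg adjustment per contrast and a threshold of 0.05. The fit was tested on simulated data with independent noise, without shifts of whole arrays or correlation between genes. It therefore cannot show how the fit behaves where arrays stand apart, as those numbered 1 do here.

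Values were given gene by gene for single-copy and stalk genes, the 4 lowest and 4 highest means per isomer, genes past the threshold between isomers and ordered pairs. Other genes were named to complete a list of calls or after their values were seen. Among these were RPL1A, RPL1B, RPL11A, RPL11B, RPL23A, RPL31A, RPL40B, RPL42B, the RPL34 and RPL42 pairs and the 3 pairs of 1 sign. The members and lists were chosen with earlier results of these data known, and so was the comparison without the arrays numbered 1.

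Deviations from the isomer mean correlated at 0.06 to 0.37 between same-numbered arrays of different isomers, over 1757 genes. Between arrays of different numbers they correlated at -0.35 to 0.23. The ranges overlap, but an array's deviations correlated best with those of its own number in 16 of 18 comparisons. Deviations of the arrays of an isomer cancel in sum, so these correlations are not independent. The labels state no pairing, and the main fit has no block. Whether the arrays are paired was not settled, and counts with a replicate block are given below.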

Additional observations from a re-analysis of the deposited data

Results flagged for a closer look

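With all arrays in the main design, RPL4A was the single large-subunit gene whose change differed between isomers by the test of the difference itself, at 2.20 on the log2 scale for o minus m (SE 0.39, limma adjusted p 0.0394). The o-nitrophenol arrays were at -2.45, -2.57 and -3.26 and the m-nitrophenol arrays at -4.68, -5.52 and -4.70. Its value on m-nitrophenol array 1 lay with those of arrays 2 and 3. The call was lost in 9 of 19 alternatives. Other fits called more genes in o minus m, among them 8 with the replicate block, 12 with the array as a random block, 16 and 20 without m- or o-nitrophenol array 1, and 61 without the arrays numbered 1.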

How the results depend on the processing

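Counts of genes that fell after p- and m-nitrophenol stayed within 1.5 times under other scans, normalizations, filters and a replicate block, and moved when an array was left out, over 24 to 61 and 18 to 68. After o-nitrophenol the count was 19 in the main fit and 13 of 71 with each array centred on its median. It was 11 with low-power scans only, where 50 of the 71 genes could be tested, and 6 to 27 with an array left out. m minus p gave 15 genes without the arrays numbered 1 and 0 under each other alternative. o minus p gave 1 with low-power scans, 1 with quantile normalization, 2 with the replicate block, 0 to 2 with an array left out and 35 without the arrays numbered 1. o minus m gave 0 with high-power scans or only the compared groups, 3 with centring or with genes on all 9 arrays, 4 with quantile normalization, 8 with the replicate block, 9 with low-power scans, 12 with all scans and the array as a random block, 0 to 20 with an array left out and 61 without the arrays numbered 1. With the replicate block 56, 64 and 24 genes fell after p-, m- and o-nitrophenol. Where a fit leaves a gene 1 array in an isomer, that array is assumed to vary like those of the other groups. The number shared by arrays is not stated to pair them. An array's deviations from its isomer mean correlated best with those of its own number in 16 of 18 comparisons with another isomer.

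Of 1330 alternatives for 73 gene values, 1165 kept direction and side of the threshold, 89 lost the call, 58 gained it and 18 changed sign, none from a called value. After o-nitrophenol RPL19A became 0.09 with low-power scans, 0.12 with centring, 0.09 with quantile normalization and 0.30 without the arrays numbered 1. RPL35A became 0.82 with low-power scans and 0.90 without the arrays numbered 1, RPL37B 0.31 and 0.45 likewise, and RPP1B 0.39 without the arrays numbered 1. With an array left out RPL19A ran from -0.41 to 0.30, RPL25 from -0.29 to 1.06, RPL35A from -1.22 to 0.90, RPL37B from -1.16 to 0.45, RPL38 from -0.19 to 1.46, RPL39 from -0.40 to 1.56, RPL41A from -0.09 to 1.0 and RPP1B from -1.34 to 0.39. After m-nitrophenol RPL41A ran from -1.73 to 0.05. The cause was not tested.

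Centring moved the all-gene median after o-nitrophenol from -0.17 to -0.01. Signal over background could not be examined.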
